A study of Mus musculus with 6 samples.

Results

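The genes described are the 5 subunits of the transcription factor NF-kB (Nfkb1, Nfkb2, Rela, Relb and Rel), 3 genes of its cytoplasmic inhibitors (Nfkbia, Nfkbib and Nfkbie), the feedback gene Tnfaip3, and Icam1, a cell adhesion molecule gene that NF-kB activates. These 10 genes were taken by their GENCODE M21 names from the 38087 gene IDs measured, and 10 of the 10 were present and abundant enough to be tested, among 16666 genes tested in all. The cells were HL-1, an established mouse line of atrial cardiomyocytes that goes back to an atrial tumour and can divide in culture. Poly(A) RNA was sequenced from 3 libraries that received a negative control siRNA, a scrambled sequence, and from 3 libraries that received 100 nM of an siRNA against Circ-INSR, a circular RNA made from the insulin receptor gene. No amount is given in the labels for the control siRNA. Cells of both groups were otherwise labelled alike, as HL-1, and no stimulus that activates NF-kB is named for either group. Gene counts do not separate circular from linear RNA, so the loss of Circ-INSR itself was not measured here.

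NF-kB factors are pairs of subunits that share the DNA-binding Rel homology region. In resting cells the inhibitors of the IkB family hold most of them in the cytoplasm. Signals such as tumour necrosis factor or interleukin-1 activate the IkB kinase complex, which marks the inhibitors for destruction, and the freed factor enters the nucleus. In the canonical branch the main pair is RelA with the mature product of Nfkb1, and in the noncanonical branch it is RelB with the mature product of Nfkb2. Several genes of the pathway are themselves textbook targets of NF-kB, as is Icam1. In the heart the pathway is known for its part in inflammatory and hypertrophic responses.

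Of the 10 genes, 7 were lower and 1 was higher after Circ-INSR siRNA, and 2 were not called. Icam1 fell the most, by 0.93 on the log2 scale (SE 0.05), and Nfkbie, encoding the inhibitor IkB epsilon, fell by 0.74 (SE 0.08). Nfkb2, Rela, Relb, Tnfaip3 and Nfkbia fell by smaller amounts, between 0.25 and 0.37. Nfkb1 went the other way and rose by 0.44 (SE 0.05), and Rel and Nfkbib were not called. Calls are edgeR quasi-likelihood tests with a Benjamini-Hochberg adjusted p under 0.05 over all genes tested. So many genes differed in this comparison that 57.0% of all genes tested were called, 28.5% higher and 28.5% lower, and the groups did not overlap for 63.3% of them. Against that background 8 of the 10 members were called, and 8 had groups that did not overlap. The median log2 fold change was -0.31 for the 10 genes and -0.0045 for all genes tested. In absolute size the median over all genes tested was 0.29, so several of these changes were of ordinary size here. By absolute change Nfkb2, Rela, Relb, Tnfaip3 and Nfkbia lay between percentiles 44.2 and 59.8 of all genes tested. Nfkb1 lay at 66.9, Nfkbie at 84.0 and Icam1 at 89.5. The genes were listed with earlier results of these data known, so these counts describe them and test nothing about the list.

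The promoters of 4 of the genes are shown as background. Whether NF-kB or these sequences had a part in the changes was not tested. Each run ends at the last base before the start of the RefSeq transcript, or before the gene's first base in GENCODE where that lies further out, and is written 5′ to 3′ on the gene's own strand of GRCm38, from RefSeq. Capitals mark matches to the kB consensus, the 10-base motif of NF-kB searched on both strands, or to GGAAATTCC, a shorter form of it, also searched on both strands. The shorter form was chosen after the Icam1 sequence had been seen. Icam1 and Nfkbie were the genes that fell the most, Nfkbia encodes the best known inhibitor, and Rel was not called.
Icam1, chr9:21015690-21015939, plus strand: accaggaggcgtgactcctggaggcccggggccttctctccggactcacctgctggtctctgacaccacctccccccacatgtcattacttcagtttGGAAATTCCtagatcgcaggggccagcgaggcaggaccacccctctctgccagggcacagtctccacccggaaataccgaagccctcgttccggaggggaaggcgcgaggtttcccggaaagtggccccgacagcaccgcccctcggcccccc
Nfkbie, chr17:45555450-45555699, plus strand: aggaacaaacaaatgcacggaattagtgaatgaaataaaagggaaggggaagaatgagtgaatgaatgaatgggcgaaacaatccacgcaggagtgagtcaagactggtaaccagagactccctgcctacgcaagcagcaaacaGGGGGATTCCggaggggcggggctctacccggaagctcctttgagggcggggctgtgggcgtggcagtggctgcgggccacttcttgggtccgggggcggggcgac
Nfkbia, chr12:55492648-55492897, minus strand: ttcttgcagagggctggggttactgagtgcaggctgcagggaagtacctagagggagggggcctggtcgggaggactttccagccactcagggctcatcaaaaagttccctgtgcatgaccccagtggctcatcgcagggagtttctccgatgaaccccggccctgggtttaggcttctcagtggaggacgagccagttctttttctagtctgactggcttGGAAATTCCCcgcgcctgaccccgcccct
Rel, chr11:23770971-23771219, minus strand: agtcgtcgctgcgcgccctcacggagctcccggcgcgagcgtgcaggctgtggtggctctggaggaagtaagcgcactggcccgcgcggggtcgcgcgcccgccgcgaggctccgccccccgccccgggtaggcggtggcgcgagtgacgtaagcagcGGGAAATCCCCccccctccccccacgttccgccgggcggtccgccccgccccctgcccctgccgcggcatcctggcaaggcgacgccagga

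The kB consensus was found in windows of 5 of the 8 members that have an entry in the RefSeq promoter table (11 windows in all, each from 250 bases before to 50 after a transcript start). Nfkb1 and Relb have no entry. A match was held by 8.46% of all 32851 RefSeq windows, and by 7 of the 11 member windows. By gene the share was 9.55% of 27025 genes, beside 5 of the 8 members. Windows of the same gene are not independent, and every window of Nfkb2 held a match. Median GC content was 52.7% over all windows and ran from 47% to 75% in the member windows. Several members are textbook NF-kB targets, so matches in them were likely beforehand and are no result of this comparison. Nfkb2, with 3 windows, had among its matches GGGAATTCCC at bases -39 to -30 and GGGGCTTTCC at -11 to -2 of the first of them, counted from the transcript start, and GGGACTTTCC in the stretch that the other two share. Nfkbia had 1 match at -29 to -20 and Nfkbie 1 at -106 to -97. Rel had overlapping matches between -92 and -82, and Tnfaip3 had matches at -125 to -116 and -12 to -3. Icam1, Rela and Nfkbib had no match to the kB consensus in this window. The windows of Nfkbib and Nfkb2 lay inside the gene as annotated in GENCODE, and those of Tnfaip3 did so except for 3 bases. For Nfkbib and Nfkb2 the bases before the first annotated one were thus not searched. Icam1 held the shorter form GGAAATTCC at -153 to -145, which 0.317% of all windows hold and which 3 of the 11 member windows hold, those of Icam1, Nfkbia and Tnfaip3. As the form was chosen after the Icam1 sequence had been seen, its match there was known beforehand. The Nfkbia match, at -29 to -21, lies inside that gene's consensus match. The count in member windows is therefore no test against the share of all windows. Windows with a match belonged to genes that fell (Nfkb2, Nfkbia, Nfkbie and Tnfaip3) and to Rel, which was not called. Of the members with a window but no match to the consensus, Icam1 and Rela fell and Nfkbib was not called. A match of letters does not show that a factor binds there.

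**Figure D1:**
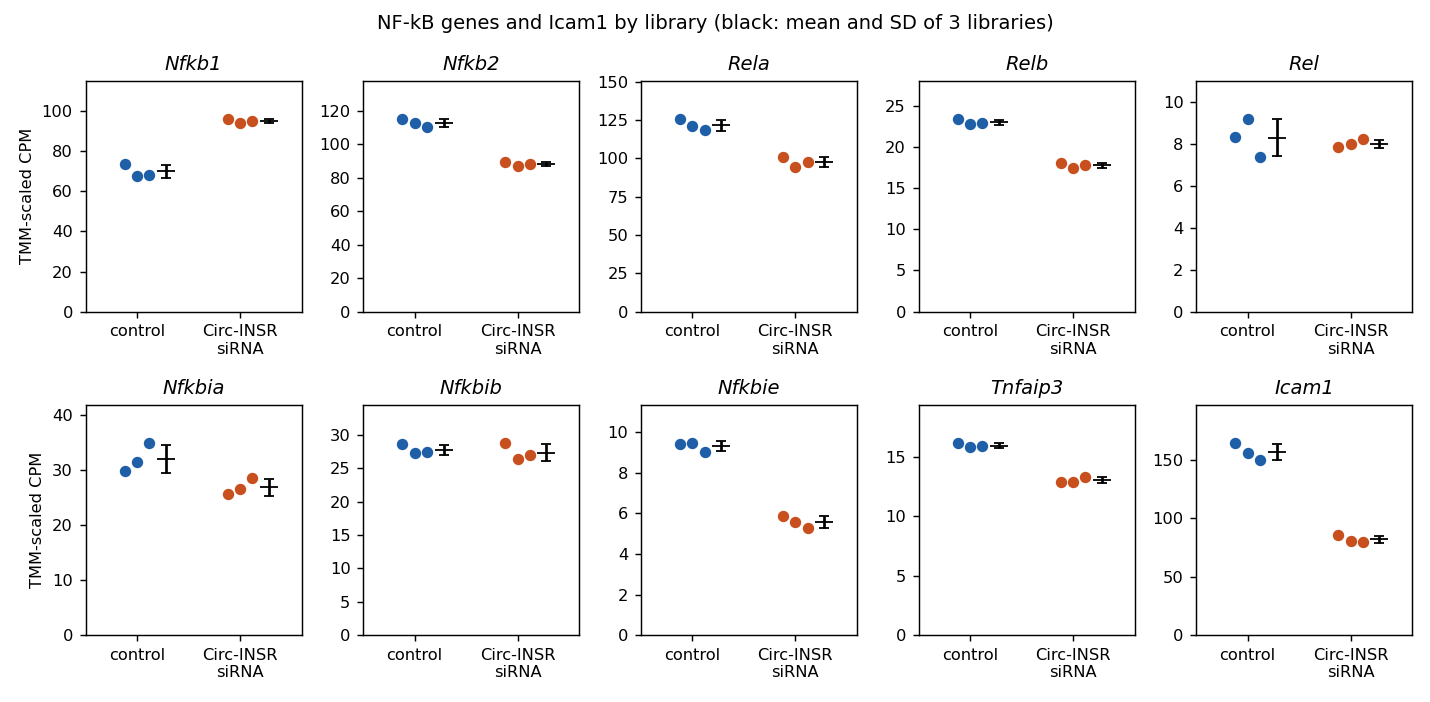
Levels of the 10 genes in each library. The y axis is the TMM-scaled count relative to library size (CPM), from 0, each point is 1 library, and the black mark gives the mean and SD of the 3 libraries of a group. Relative to their control level Icam1 and Nfkbie show the widest gap downward, Nfkb1 alone has its siRNA libraries above its control libraries, and the points of Rel and Nfkbib overlap.

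Total counts were 60024750 to 62523602 in control libraries and 68468620 to 77037474 in Circ-INSR siRNA libraries, and the counts of single members ran from 378 to 9924 per library. Between control libraries 1 and 2 the mean chi-square over genes was 7.06, while control replicate 3 differed from them more, at 31.7 and 22.1. Without it the members had the same count of calls, 7 lower and 1 higher. Of 12 atrial cardiomyocyte markers 11 were at 1 CPM or more in every library, the exception being Sln. The 12 summed to 10306 to 11016.5 CPM in controls and 12348 to 12417 CPM in siRNA libraries. The largest part of the sum was Atp2a2, with means of 3650 and 4653 CPM. Of the 12 markers 6 were higher and 3 lower. That is 75% called, 50% higher and 25% lower, beside 57.0% called and 28.5% in each direction over all genes tested. Whether each library stands for its own culture is not said in the labels, and the p-values cover the spread among these libraries, which may be technical. In bulk RNA, fewer cells with a transcript and less of it per cell cannot be told apart.

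Rela encodes the subunit with the strongest activation domain. It had 125.4, 121.3 and 118.2 CPM, the unit of counts scaled to library size, in control replicates 1 to 3 and 100.7, 94.3 and 97.5 CPM in the Circ-INSR siRNA libraries. All siRNA libraries were below all controls. The log2 fold change was -0.32 (SE 0.05; edgeR adjusted p = 8.42e-05), which means that the level fell by 19.8%. It was -0.18 once each library's trend on exonic length and GC content had been removed, and the call held (edgeR adjusted p = 0.000212).

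Nfkb1 encodes a precursor that is cut to the DNA-binding partner of RelA. It had 73.7, 67.8 and 68.1 CPM in controls and 95.7, 94.1 and 95.1 CPM after Circ-INSR siRNA. The siRNA libraries were all above the controls and lay closer together than the controls did. The rise of 0.44 (SE 0.05; edgeR adjusted p = 7.16e-06) came to 35.9%.

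Nfkb2 encodes the precursor of the noncanonical branch, which also acts as an inhibitor before it is cut. It had 114.9, 112.8 and 110.2 CPM in controls and 89.3, 87.1 and 88.4 CPM after Circ-INSR siRNA. The groups did not overlap, and the log2 fold change was -0.35 (SE 0.04; edgeR adjusted p = 1.91e-05). With the length and GC trend removed the value was -0.23. Exons of Nfkb2 share 299 bases with those of Psd on the other strand, which had 10.2 to 12.3 CPM in controls and 16.8 to 18.8 CPM in siRNA libraries, and the strand setting of the counts is not known here. They also share 531 bases with AC114539.1, a noncoding gene on the other strand that has no row of its own among the gene IDs used here.

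Relb encodes the partner of the Nfkb2 product. It had 23.3, 22.8 and 22.9 CPM in controls and 18.0, 17.5 and 17.8 CPM after Circ-INSR siRNA. Both groups were tight and separate, and the log2 fold change was -0.37 (SE 0.05; edgeR adjusted p = 7.64e-05). It was -0.24 with the length and GC trend removed. The ratio of Nfkb2 to Relb per base of exon was 4.15 ± 0.0592 in controls and 4.21 ± 0.00924 after siRNA (SD, n = 3 each), and the groups did not overlap, with the highest control at 4.201 and the lowest siRNA library at 4.204.

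Rel, the gene of c-Rel, a subunit best known in lymphocytes, was the least abundant per length of the 10 genes. It had 8.35, 9.16 and 7.37 CPM in controls and 7.83, 8.0 and 8.21 CPM after Circ-INSR siRNA. All siRNA libraries lay inside the range of the controls. Its log2 fold change was -0.05 (SE 0.09; edgeR adjusted p = 0.656), and it turned to 0.03 without control replicate 2, the highest of the controls.

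**Figure D2:**
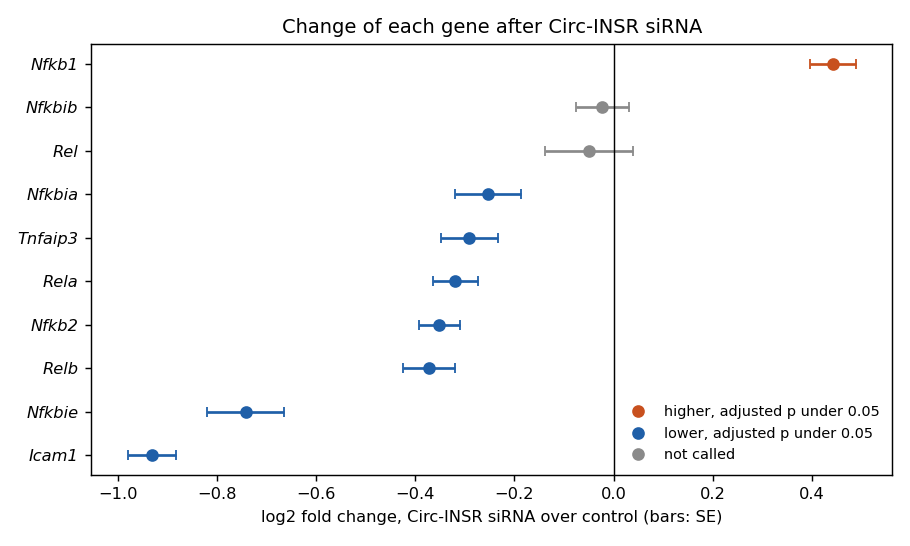
Log2 fold change of each gene, Circ-INSR siRNA over control, ordered from the highest to the lowest. Points are the fitted values, bars the SE, and colours the call of the edgeR test at an adjusted p of 0.05. Nfkb1 stands at 0.44, the other 4 subunits lie at or below -0.05, and Icam1 is lowest at -0.93.

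Levels were compared between genes only per length, as CPM per kilobase of the union of annotated exons. In controls Rela was highest at 39.6 ± 1.17, followed by Icam1 at 35.9 ± 1.63, Nfkb2 at 24.6 ± 0.509, Nfkbia at 19.9 ± 1.601 and Nfkbib at 12.8 ± 0.325 (CPM per kilobase, SD, n = 3). Relb at 5.91 ± 0.0772 and Nfkb1 at 5.79 ± 0.273 overlapped. Nfkbie, Tnfaip3 and Rel came last, with 3.05 ± 0.0767, 2.20 ± 0.0253 and 1.11 ± 0.120 CPM per kilobase. After Circ-INSR siRNA, Nfkb2 at 19.3 ± 0.247 and Icam1 at 18.8 ± 0.680 overlapped, as did Nfkbie at 1.83 ± 0.0978 and Tnfaip3 at 1.80 ± 0.0340. Nfkb1, at 7.88 ± 0.0672, then stood above Relb, at 4.57 ± 0.0672. The union of exons of Nfkb1 is 12061 bases, the longest of the 10 genes, so its level per length would be higher if a shorter transcript were the one expressed.

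The make-up of the subunit mRNAs shifted toward Nfkb1. Its share of the summed level of the 5 subunit genes, per length, was 7.72%, 7.32% and 7.53% in controls and 12.05%, 12.38% and 12.22% after Circ-INSR siRNA. Rela made up 51.4 ± 0.160% in controls and 49.2 ± 0.542% after siRNA, Nfkb2 31.9 ± 0.208% and 29.9 ± 0.272%, and Relb 7.68 ± 0.135% and 7.08 ± 0.0512% (SD, n = 3 each). The shares of Nfkb1, Rela, Nfkb2 and Relb did not overlap between groups, while that of Rel did, at 1.44 ± 0.143% and 1.66 ± 0.0630%. The ratio of Nfkb1 to Nfkb2 per length was 0.236 ± 0.00765 in controls and 0.409 ± 0.00177 after siRNA. Shares and ratios within a library do not depend on how libraries are scaled, and no test was made of them. They were not recomputed with the length and GC trend removed. Under that setting the log2 fold change was 0.38 for Nfkb1 (0.44 as reported), -0.23 for Nfkb2 (-0.35) and -0.18 for Rela (-0.32). It was -0.24 for Relb (-0.37) and -0.12 for Rel (-0.05).

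**Figure D3:**
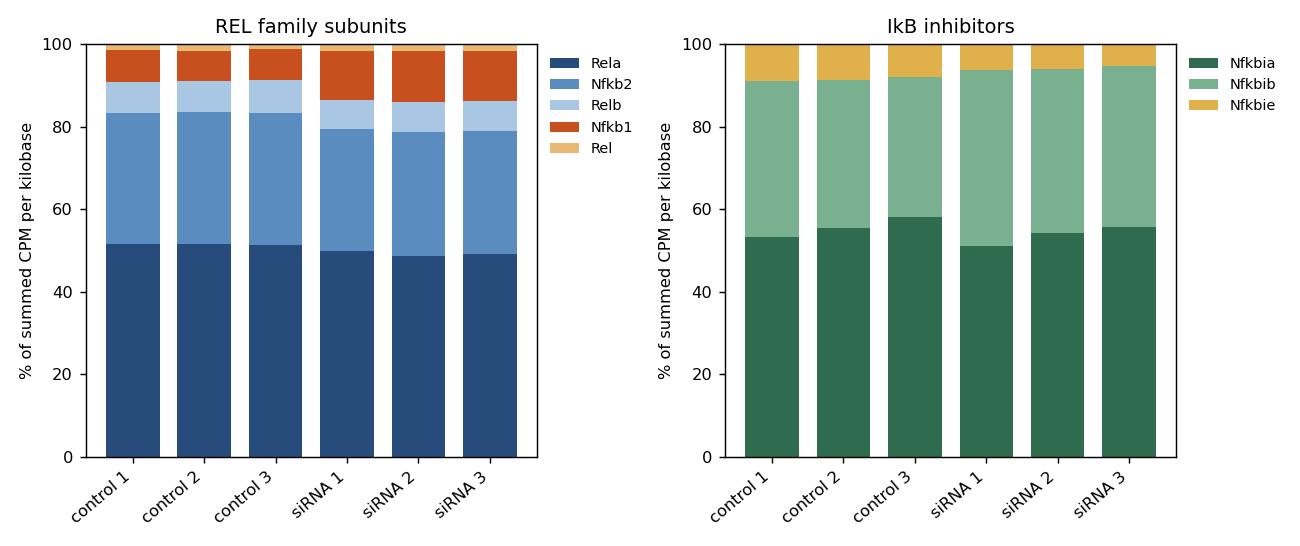
Share of each gene in the summed level of the REL family subunits (left) and of the IkB inhibitors (right), in each library, as % of CPM per kilobase of exon. Bars are single libraries, with controls at the left of each panel. The Nfkb1 block is wider in the 3 siRNA libraries, and the Nfkbie block is narrower there.

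Nfkbia encodes IkB alpha, the inhibitor that NF-kB itself induces and that ends the response. It had 29.8, 31.4 and 34.9 CPM in controls and 25.6, 26.5 and 28.5 CPM after Circ-INSR siRNA. The groups were separate, but the lowest control and the highest siRNA library were close. The log2 fold change of -0.25 (SE 0.07) was called (edgeR adjusted p = 0.00638). This call rested on the processing, with -0.14 (edgeR adjusted p = 0.0545) when the trend on length and GC was removed. It was -0.18 (edgeR adjusted p = 0.0103) without control replicate 3, the highest of the 6 libraries for this gene.

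Nfkbib, for IkB beta, had 28.5, 27.2 and 27.4 CPM in controls and 28.7, 26.3 and 26.9 CPM after Circ-INSR siRNA. The groups overlapped, and the log2 fold change was -0.02 (SE 0.05; edgeR adjusted p = 0.741). With the length and GC trend removed it was 0.12 and was called higher (edgeR adjusted p = 0.0315). Its exons share 314 bases with Ccer2, at under 0.07 CPM in every library, and 42 bases with Sirt2, both on the other strand. Sirt2 had 39.2 to 41.3 CPM in controls and 46.4 to 47.7 CPM in siRNA libraries, and the strand setting of the counts is not known here.

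Nfkbie, for IkB epsilon, had 9.42, 9.45 and 9.03 CPM in controls and 5.85, 5.57 and 5.26 CPM after Circ-INSR siRNA. The groups were far apart relative to their spread, and the log2 fold change was -0.74 (SE 0.08; edgeR adjusted p = 7.42e-06), a fall of 40.2%. Among the 3 inhibitor genes per length, Nfkbie made up 8.56 ± 0.523% in controls and 5.88 ± 0.401% after siRNA, Nfkbib 35.8 ± 1.95% and 40.5 ± 1.93%, and Nfkbia 55.6 ± 2.42% and 53.6 ± 2.27% (SD, n = 3 each). The shares of Nfkbia overlapped between groups and those of the other genes did not. Shares are parts of a whole, so that of Nfkbib also depends on the other inhibitor genes. Its own level was 12.8 ± 0.325 CPM per kilobase in controls and 12.6 ± 0.581 after siRNA, and it was not called. The summed level of the 5 subunit genes over that of the 3 inhibitor genes, per length, was 2.16 ± 0.133 in controls and 2.07 ± 0.0471 after siRNA, and these groups overlapped.

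Tnfaip3 encodes A20, an enzyme that edits ubiquitin chains and shuts off signalling upstream of the IkB kinases. It had 16.1, 15.8 and 15.9 CPM in controls and 12.9, 12.9 and 13.3 CPM after Circ-INSR siRNA. Controls had an SD of 0.183 CPM, and all siRNA libraries were lower. The log2 fold change was -0.29 (SE 0.06; edgeR adjusted p = 0.00103).

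Icam1 encodes a surface protein of the immunoglobulin superfamily that leukocyte integrins bind (ENSMUSG00000037405, mm10 chromosome 9, 21015985 to 21028817, plus strand). It had 164.0, 155.9 and 149.8 CPM in controls and 85.5, 80.9 and 79.9 CPM after Circ-INSR siRNA. Every siRNA library was below every control by a wide margin, and the fall was 47.6% (edgeR adjusted p = 3.25e-08). With the length and GC trend removed the log2 fold change was -0.81. An antisense gene of the annotation, Gm47079, shares 511 exonic bases with Icam1 and has no row of its own among the gene IDs used here.

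The genes with the pattern most like that of Icam1 over the 6 libraries, among 11209 genes compared, were Klhl26, Tbc1d8 and Cnksr1, with Pearson correlations of log2 CPM of 0.9999, 0.9999 and 0.9998. For Relb they were Fbxw9, Med9 and Them6, at 0.9999, 0.9997 and 0.9997. A total of 1999 genes reached a correlation of 0.95 with Icam1. The 6 points fall into 2 groups of 3 libraries, so such values mostly reflect the difference between groups.

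Cell type markers were read beside Icam1, which endothelial cells, fibroblasts and leukocytes also carry. Leukocyte markers summed to 24.3 to 26.2 CPM in controls and 29.6 to 31.3 CPM after Circ-INSR siRNA, with 2 of 8 at 1 CPM or more in every library, Adgre1 at 0 and Ptprc, the pan-leukocyte marker, at 10 counts over all 6 libraries. Most of that sum was Itgb2, which is also a chain of the integrins that bind Icam1, and which rose from 18.3 ± 0.621 to 26.2 ± 0.761 CPM (SD, n = 3 each). The other leukocyte markers that could be tested went the opposite way. Cd68 fell from 5.19 ± 0.305 to 3.27 ± 0.185 CPM and Csf1r from 1.65 ± 0.209 to 0.653 ± 0.0647 CPM. Of the 3 tested, 1 marker thus rose and 2 fell (median log2 fold change -0.67). That is 33.3% higher and 66.7% lower, beside 28.5% in each direction and 57.0% called over all genes tested. Itgb2, Cd68 and Csf1r are named after their values were seen. Endothelial markers summed to 27.3 to 30.7 CPM and 82.8 to 86.8 CPM, with 2 of 8 at 1 CPM or more, most of it Kdr, while Emcn was at 0. Among the 4 endothelial markers tested, 2 rose and 0 fell (50% called). Fibroblast markers summed to 162.5 to 181.3 CPM and 114.4 to 129.6 CPM, mostly Col1a1, with 2 of 6 at 1 CPM or more and Tcf21 at 0. Among the 3 fibroblast markers tested, 0 rose and 1 fell (33.3% called). The part of such cells in the fall of Icam1 was not tested.

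Of 34 receptors and ligands that signal to NF-kB, 20 were abundant enough to test, and 10 of them fell and 1 rose (median log2 fold change -0.29). That is 55% called, beside 57.0% of all genes tested, with 50% lower beside 28.5%. Tnfrsf1a, the main receptor for tumour necrosis factor, fell from 98.9 ± 3.50 to 45.2 ± 0.893 CPM (SD, n = 3 each; edgeR adjusted p = 4.95e-09). Its control libraries had 103.0, 97.1 and 96.7 CPM and its siRNA libraries 44.8, 44.5 and 46.2 CPM, far outside the spread of either group. Tlr2, a receptor for bacterial lipoproteins, fell from 10.1 ± 0.484 to 5.34 ± 0.264 CPM and the cytokine gene Tnfsf12 from 9.71 ± 0.632 to 5.45 ± 0.638 CPM. Tlr1, the partner of Tlr2, rose from 0.613 ± 0.287 to 1.68 ± 0.351 CPM. Tnf and Il1b, which encode the classical activating cytokines and are named here after their values were seen, had 8 counts each over the 6 libraries and were not tested.

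Of 36 kinases, adaptors and ubiquitin enzymes upstream of NF-kB, 35 were tested, 14 fell and 13 rose (median -0.02). The share called was 77.1%, against 57.0% of all genes tested, with 40% lower and 37.1% higher against 28.5% each. Irak2, a kinase of the interleukin-1 and Toll-like receptor branch, fell from 49.9 ± 2.35 to 23.3 ± 1.16 CPM, Rbck1, a subunit of the enzyme that makes linear ubiquitin chains, from 287.4 ± 12.1 to 172.8 ± 5.96 CPM, and the kinase gene Tbk1 from 59.8 ± 0.570 to 41.5 ± 0.510 CPM (SD, n = 3 each). Rnf31 and Sharpin, genes of the other subunits of the Rbck1 enzyme, are named after their values were seen. They were not called, at -0.01 (edgeR adjusted p = 0.917) and -0.06 (edgeR adjusted p = 0.442). Irak1 moved opposite to Irak2 and rose by 0.47 (SE 0.04). Cul1, a scaffold of the ubiquitin ligase that tags IkB proteins, rose from 103.0 ± 3.68 to 153.6 ± 2.004 CPM, and Btrc, its IkB-binding subunit, from 27.5 ± 1.24 to 41.2 ± 0.5002 CPM. The subunit genes of the IkB kinase complex, named after their values were seen, differed among themselves. Ikbkg changed by -0.42 (SE 0.04; edgeR adjusted p = 7.1e-06), Ikbkb by -0.24 (SE 0.06; edgeR adjusted p = 0.00346) and Chuk by 0.08 (SE 0.05; edgeR adjusted p = 0.205). Without control replicate 3 Chuk was called higher, at 0.12 (edgeR adjusted p = 0.0233). Map3k14, the kinase that starts the noncanonical branch, also named after its values were seen, fell from 27.8 ± 2.98 to 17.5 ± 0.367 CPM.

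Of 24 further inhibitors and nuclear co-regulators 22 were tested, 9 fell and 4 rose (median -0.07). The 59.1% called was near the 57.0% of all genes tested, with 40.9% lower against 28.5%. Nfkbiz, an atypical IkB protein of the nucleus, fell from 14.4 ± 0.695 to 8.16 ± 0.366 CPM, Tnip2, a partner of A20, from 30.2 ± 0.756 to 18.7 ± 0.373 CPM, and Cyld, a deubiquitinase, from 66.4 ± 1.698 to 49.6 ± 1.58 CPM (SD, n = 3 each). Pdlim2, which promotes the breakdown of nuclear RelA, rose from 1.47 ± 0.0873 to 3.24 ± 0.101 CPM. The ligase genes Itch and Pias1 rose by 0.28 (SE 0.04) and 0.21 (SE 0.05).

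Textbook NF-kB targets other than the members numbered 40, of which 28 were tested, 17 fell and 3 rose (median -0.38). Of the tested targets 71.4% were called and 60.7% were lower, where all genes tested had 57.0% and 28.5%. The lists overlap. Nfkbiz also counts among the further inhibitors and Birc3 among the kinases and adaptors. Vcam1 and Selp also count among the adhesion molecules, and Irf1 among the other factors named at the Icam1 promoter. The cytokine gene Lif fell from 32.9 ± 1.68 to 11.5 ± 0.453 CPM, Tap1, the peptide transporter of antigen presentation, from 156.95 ± 5.17 to 87.0 ± 6.97 CPM, and Lcn2, an iron-binding secreted protein, from 1.37 ± 0.2 to 0.0949 ± 0.0490 CPM (SD, n = 3 each). Those that rose were Csf1, the macrophage growth factor, by 0.41 (SE 0.06), the chemokine gene Cx3cl1 by 0.17 (SE 0.06) and Sod2, the superoxide dismutase of mitochondria, by 0.16 (SE 0.04). The rise of Cx3cl1 did not pass the test without control replicate 3 (0.12; edgeR adjusted p = 0.0557), without Circ-INSR siRNA replicate 2 (0.17; adjusted p = 0.0603) or 3 (0.15; adjusted p = 0.0919), or with total-count scaling (0.12; adjusted p = 0.0809). With the length and GC trend removed it was larger, at 0.30 (edgeR adjusted p = 9.55e-05). That of Sod2 did not pass with this trend removed (0.083; edgeR adjusted p = 0.0977).

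**Figure D4:**
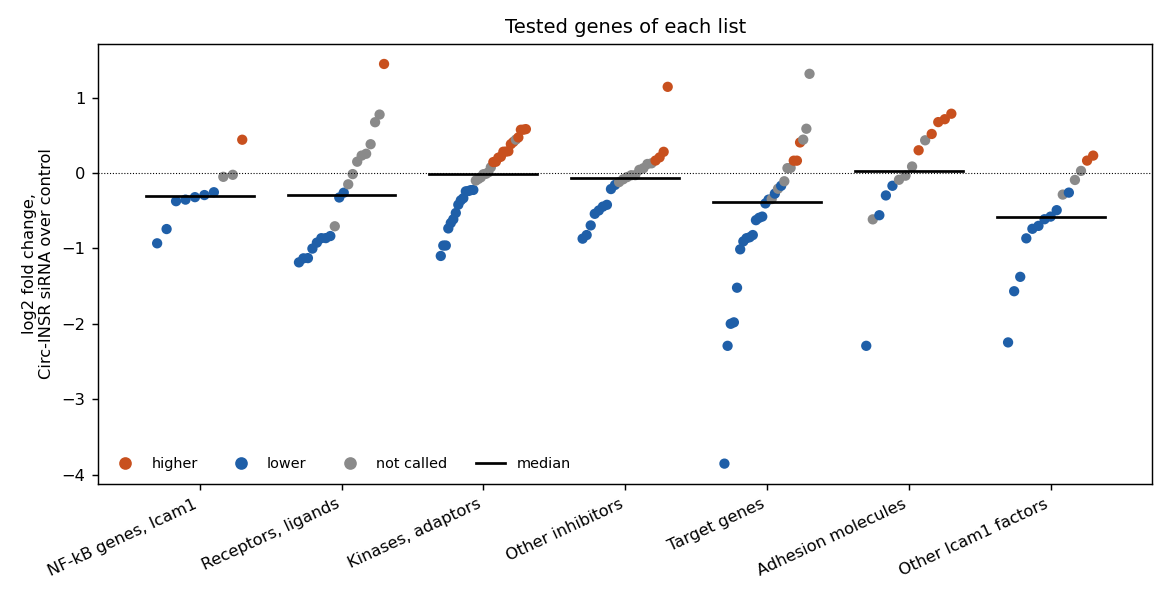
Log2 fold change of each tested gene in 7 gene lists, Circ-INSR siRNA over control. Each point is a gene, sorted within its list, coloured by its call, and the black line is the median of the list. Medians lie below 0 for the members, receptors and ligands, targets and other Icam1 factors, and near 0 for kinases and adaptors, other inhibitors and adhesion molecules.

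Icam1 was set beside 17 other adhesion molecules and integrin chains, of which 14 were tested, 5 rose and 4 fell (median 0.03). This made 64.3% called, 35.7% higher and 28.6% lower, next to 57.0% called and 28.5% in each direction over all genes tested. Those that rose included F11r, Alcam and Jam2, surface proteins of cell contacts, by 0.72 (SE 0.04), 0.79 (SE 0.05) and 0.68 (SE 0.05) on the log2 scale. Mcam fell from 601.7 ± 24.7 to 408.5 ± 2.29 CPM, and Selp from 0.895 ± 0.131 to 0.182 ± 0.0256 CPM. Vcam1, another ligand of leukocyte integrins and another NF-kB target, changed by -0.17 (SE 0.04; edgeR adjusted p = 0.00508). Its level was 306.3 ± 7.28 CPM in controls and 272.6 ± 8.54 CPM after siRNA. Other Icam genes, named after their values were seen, were scarcer than Icam1, with Icam4 at 5.67 ± 0.605 CPM in controls and 4.62 ± 0.326 CPM after siRNA and Icam5 at 4.33 ± 0.492 and 4.5998 ± 0.4901 CPM. Icam4 passed the test at -0.30 (edgeR adjusted p = 0.0282), but not with DESeq2 (adjusted p = 0.0577), without control replicate 2 (0.132), without siRNA replicate 2 (0.0601) or 3 (0.108), or with the length and GC trend removed (-0.15; 0.242). Icam5 was not called (0.09; edgeR adjusted p = 0.539).

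Of 16 factors other than NF-kB that textbooks name at the Icam1 promoter, 15 were tested, 10 fell and 2 rose (median -0.58). Called were 80% and lower 66.7%, while over all genes tested these shares were 57.0% and 28.5%. Junb fell from 111.4 ± 2.48 to 42.9 ± 0.923 CPM, Ets2 from 45.4 ± 1.08 to 24.9 ± 0.0524 CPM and Fosl1 from 8.95 ± 0.970 to 1.88 ± 0.0992 CPM (SD, n = 3 each). Jund, a relative of Junb in the AP-1 family, rose by 0.23 (SE 0.05), and Sp3 by 0.17 (SE 0.06). The rise of Sp3 did not pass the test without control replicate 1, where it was 0.095 (edgeR adjusted p = 0.107). It did not pass either without Circ-INSR siRNA replicate 1 (0.16; adjusted p = 0.105) or 2 (0.15; adjusted p = 0.111), or with upper-quartile (0.15; adjusted p = 0.0668) or total-count scaling (0.12; adjusted p = 0.13). What the factors do at Icam1 was not measured.

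**Figure D5:**
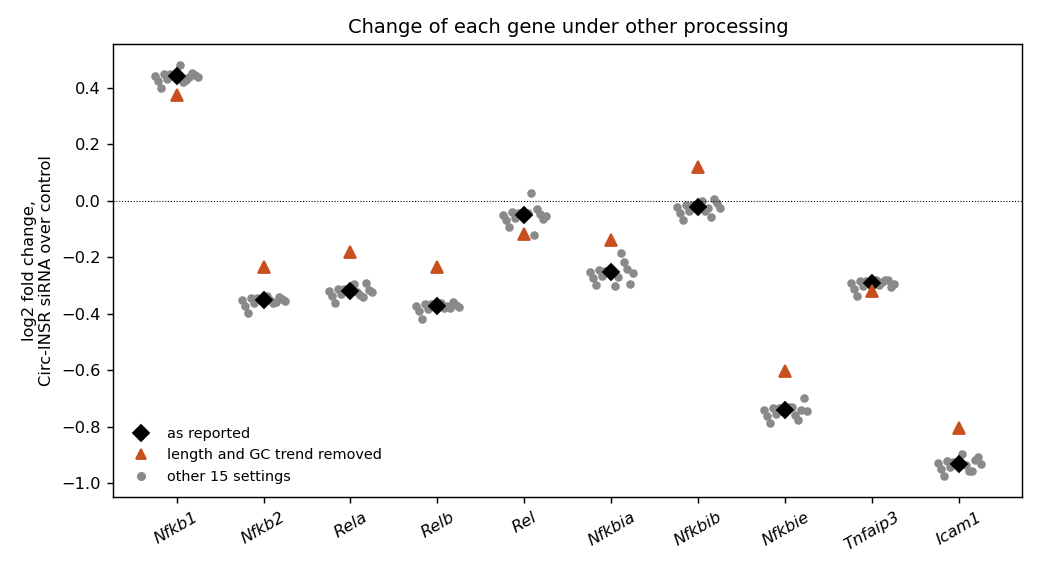
Log2 fold change of each of the 10 genes, Circ-INSR siRNA over control, as reported (diamonds), with the trend on exonic length and GC content removed (triangles), and under the other 15 settings (grey points). The grey points stay near the diamonds, and the triangles lie closer to 0 for Nfkb1, Nfkb2, Rela, Relb, Nfkbia, Nfkbie and Icam1, farther below 0 for Rel and Tnfaip3, and above 0 for Nfkbib.

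The genes lie at these places in mm10. Rela (chromosome 19, 5637483 to 5648130) and Nfkb2 (chromosome 19, 46304320 to 46312385) share a chromosome and are on the plus strand, as is Nfkbie (chromosome 17, 45555703 to 45563169). On the minus strand lie Nfkb1 (chromosome 3, 135584655 to 135691547), Relb (chromosome 7, 19606217 to 19629438), Nfkbib (chromosome 7, 28758251 to 28767512), Rel (chromosome 11, 23736847 to 23770970), Nfkbia (chromosome 12, 55489410 to 55492647) and Tnfaip3 (chromosome 10, 19000910 to 19015657). Values here are sums over each whole gene, and transcripts of 1 gene were not told apart. The GC content of the longest transcript was 42.5% for Rel, 44.9% for Nfkb1 and 47.1% for Tnfaip3, and from 52.9% to 59.4% for the other 7 genes, which are the 7 whose log2 fold change moved upward when the trend was removed.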

How the data were processed

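The authors deposited unnormalized counts for each Ensembl gene and library. The submitters' processing notes name build mm10, STAR 2.5.0c and featureCounts 1.6.4, without role or order. For annotation release, strand setting and read pairs, the choice made is not given in the sources used here. In every library more genes had a count of 2 than of 1, so counts may include both mates of a pair, and a run with halved counts was made. Names, positions and exon lengths are from GENCODE M21 (same build), which holds 36308 of 38087 IDs (95.33%). Genes were filtered with filterByExpr (minimum count 10, minimum total 15), libraries scaled by TMM, and groups compared with the robust quasi-likelihood test of edgeR 4.0.16 (R 4.3.3) over 16666 genes, group as the only term, Benjamini-Hochberg adjusted, threshold 0.05. SE was derived from the log2 fold change and its F statistic. CPM are TMM-scaled, and 3 counts equal 0.0395 to 0.0496 CPM. Steps were tested on simulated data.

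Alternatives were RLE, upper-quartile and total-count scaling, no filter or 1 CPM in 3 libraries, DESeq2 1.42.0, limma-voom (limma 3.58.1), each library left out, the replicate number as a block, halved counts, and offsets for a smooth per-library trend on exonic length and GC content. The members and lists were chosen with earlier results of these data known. Genes named are the 10 members, up to 3 called genes of each list and direction with the smallest adjusted p (the 2 most abundant if none was called), and the 3 genes above an average log2 CPM of 1 most correlated with Icam1 and with Relb. Markers and a few other genes were named outside this rule, as said beside them. Markers of 4 cell types were summed and counted. No genome sequence was used beyond RefSeq promoter windows (GRCm38).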

Additional observations from a re-analysis of the deposited data

How the results depend on the processing

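Results were recomputed under 16 settings. Of 160 values of the 10 genes, 156 kept their direction and side of the threshold. The count of members lower was 7, or 6 with the length and GC trend removed, where the count higher was 2 instead of 1. With each library left out in turn, Rel ran from -0.123 to 0.0278 and Nfkbib from -0.0567 to 0.00699, both uncalled. With the trend removed Nfkbib was 0.12 and Nfkbia -0.14. The cause was not tested. Receptors and ligands higher numbered 2 instead of 1 with DESeq2 and with the replicate block, and 1 to 2 with libraries left out. Other Icam1 factors higher numbered 1 instead of 2 with upper-quartile or total-count scaling, and 1 to 2 with libraries left out. Of 767 values of 48 other named genes, 751 kept direction and side, 15 lost the call, 1 gained it and 0 reversed. Over all genes, 4130 to 5611 were higher and 4148 to 5326 lower. Same-numbered libraries correlated at 0.0242 to 0.0739 in their deviations from group means, each most strongly with its own number, which is a hint from the data only. The replicate block, fitted for that reason as an alternative, gave 4968 higher and 4900 lower genes and moved no member's call. With 3 libraries a group, an exact permutation test of a single value cannot go below p = 0.1.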
